A study of Mus musculus with 6 samples.

Results

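The genes described here make the RNA cap or bind it in the nucleus. They are Rngtt, Rnmt, Fam103a1, Cmtr1, Cmtr2, Pcif1, Tgs1, Ncbp1, Ncbp2 and Phax, 10 of the 46983 genes in the count tables, selected by gene symbol, from a set drawn up with earlier results of these data known. All 10 were among the 12336 genes that passed the filter on low counts and were tested. The comparison asks whether the transcripts of the other 9 genes were higher or lower in T cells in which Rnmt had been deleted.

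RNA polymerase II transcripts receive a guanosine cap on their first nucleotide while they are still being synthesised, and the cap is then methylated in successive steps. The cap guanosine is added by one enzyme and methylated by another, and further methyl groups are placed on the first transcribed nucleotides. In the nucleus the finished cap is bound by a complex that links it to RNA processing and export, and in the cytoplasm by the translation initiation machinery.

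RNA sequencing was performed on naïve CD4 T cells of male mice, which had been sorted from lymph nodes as live TCRb+ CD4+ cells with CD62L and without CD44. There were 3 control libraries (Rnmt fl/fl CD4cre -) and 3 Rnmt cKO libraries (Rnmt fl/fl CD4cre +), and no ages are given in the labels. Animals of both groups were on a C57B6/J background and carried the floxed Rnmt alleles, and only the Rnmt cKO animals carried Cre, so that the effects of the transgene and of Rnmt deletion cannot be told apart. Cre was driven by Cd4 regulatory sequence, which acts in T cells from the thymocyte stage onward, so that cells of other lineages in a sort keep an intact gene. The labels do not tie the libraries to animals, while the study's supplement describes the sequenced groups as mice in the same number as the libraries. The p-values measure the spread between these libraries.

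Sense counts assigned to genes ranged from 8873413 to 11277764 per library, and the cap genes held between 100 and 1509 counts each. Of all tested genes, 844 were lower and 987 higher in Rnmt cKO at an adjusted p under 0.05. Rnmt cKO 3 stood apart, with 31.8% of uniquely mapped reads in no annotated gene against 47.9% and 46.5% in Rnmt cKO 1 and 2 and 36.1% to 46.1% in controls. Naïve CD4 T cell markers were detected for 10 of 10 genes, with a summed level of 5757 to 6285 CPM in controls and 6317 to 7108 CPM in Rnmt cKO. Markers of other cells also differed between the groups. The summed level of 8 B cell markers was 44.0 to 51.6 CPM in controls and 56.6 to 100.2 CPM in Rnmt cKO, with 5 of 8 higher, and that of 8 myeloid markers was 25.3 to 30.2 and 30.4 to 41.1 CPM, with 1 of 4 tested higher. Of 2 CD8 T cell markers both were lower (21.7 to 23.3 against 13.5 to 17.3 CPM summed), and 5 erythroid markers summed to 4.75 to 7.52 and 1.06 to 1.35 CPM, with 2 of 2 tested lower. Memory, effector and activated T cell genes summed to 274 to 294 and 436 to 508 CPM, with Cd44 and Il2ra lower and the proliferation genes Mki67 and Top2a higher among 6 tested. No marker was at 0 in all libraries, and the part of these cells in the results below was not tested.

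Rnmt was the 1 cap gene of 10 that passed the threshold. It fell by 0.67 on the log2 scale in Rnmt cKO, a change of -37.0%. None of the other 9 cap genes passed the threshold, although intervals below leave room for changes, and their median log2 fold change was 0.04, beside 0.01 over all tested genes. Over all tested genes 6.84% were called lower, 8.00% higher and 14.8% changed in either direction. Fam103a1, which encodes the activating subunit of RNMT, had the highest log2 fold change of the 9, 0.24, with overlapping groups and an adjusted p of 0.309.

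**Figure D1:**
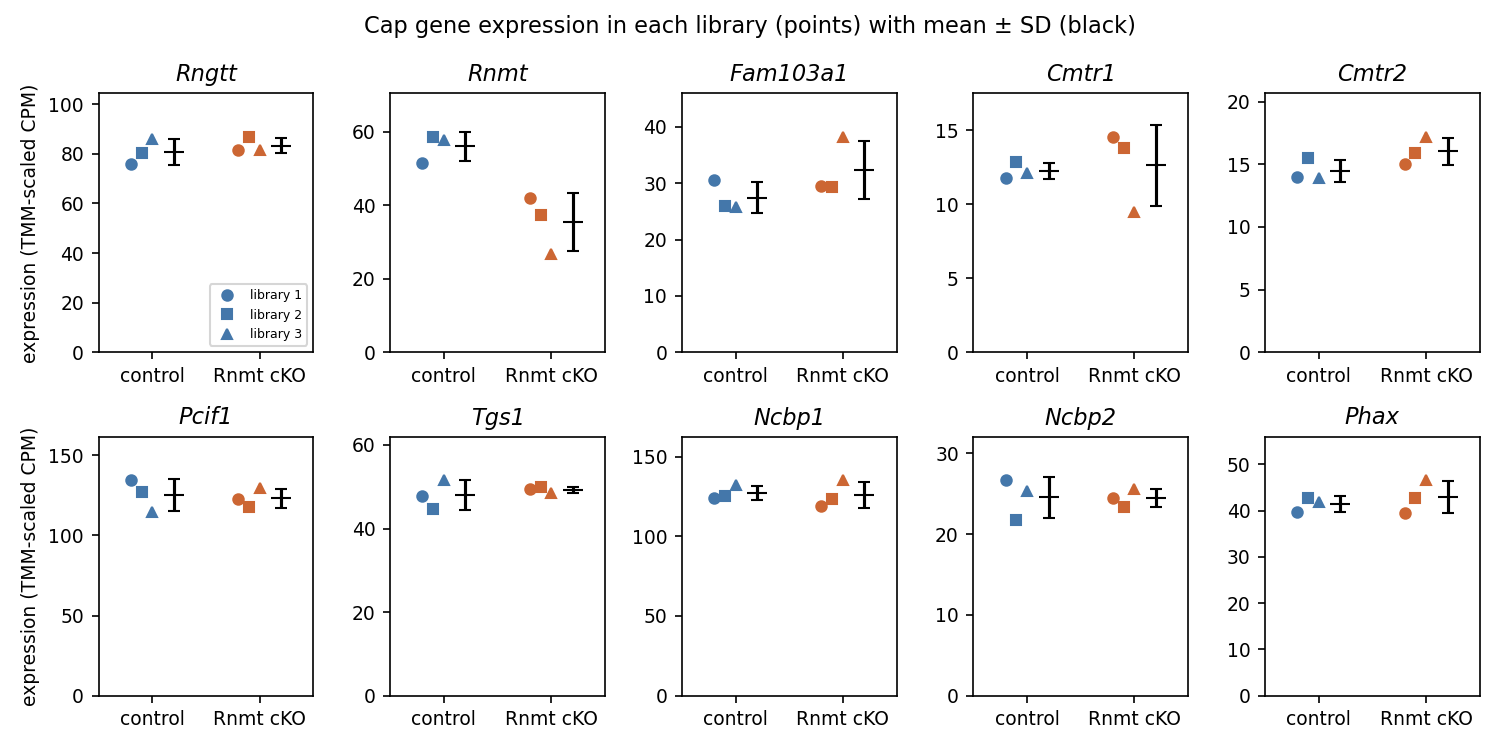
Expression of the 10 cap genes in each library, in TMM-scaled CPM, with each panel starting at 0. Marker shapes give the library number, and black bars give the mean ± SD of the 3 libraries of a group. Rnmt is the gene whose 3 Rnmt cKO libraries all lie below its 3 control libraries, and the groups of the other 9 genes overlap.

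Expression is given in CPM, counts scaled by TMM factors to a common library size, and log2 fold changes set Rnmt cKO against control. The adjusted p-values come from edgeR's exact test with Benjamini-Hochberg adjustment over all tested genes. Coordinates are those of GENCODE vM21 on mm10. Intervals are 95% intervals of the log2 fold change from limma. In bulk RNA, fewer cells that express a gene and less RNA per cell cannot be told apart.

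The enzyme that opens the pathway is RNGTT, which removes the terminal phosphate of the new transcript and adds the guanosine. Rngtt (ENSMUSG00000028274, chromosome 4, 33310311 to 33502614, plus strand, 16 exons) was at 75.8, 80.4 and 86.2 CPM in controls 1, 2 and 3 and at 81.6, 87.0 and 81.6 CPM in Rnmt cKO 1, 2 and 3. The groups overlapped throughout. The log2 fold change was 0.05 ± 0.06 (SE), with an adjusted p of 0.848 and an interval of -0.13 to 0.23, or -8.77% to 16.9%.

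RNMT methylates the added guanosine at position N7. Rnmt (ENSMUSG00000009535, chromosome 18, 68300355 to 68324852, plus strand) was at 51.5, 58.7 and 57.9 CPM in controls and at 42.0, 37.5 and 26.6 CPM in Rnmt cKO. Every Rnmt cKO library was below every control, and Rnmt cKO 3 was the lowest. Mean expression was 56.02 ± 3.94 CPM against 35.3 ± 7.88 CPM (SD, n = 3 each), with a log2 fold change of -0.67 ± 0.20 (SE) and an adjusted p of 0.00035. The interval ran from -1.02 to -0.37, or -50.7% to -22.8%. By p-value Rnmt stood at rank 640 among the tested genes, and its log2 fold change lay at percentile 4.92. Groups that did not overlap with the lower values in Rnmt cKO were found for 14.9% of all tested genes.

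The floxed part of Rnmt is exon 3, which in this annotation spans chromosome 18, 68307646 to 68307787, in both annotated transcripts. These 142 bases make up 2.84% of the 5008 exonic bases of the gene, and their number leaves 1 base over a multiple of 3. Counts are summed over the whole gene, so RNA from the deleted allele that lacks this exon is still counted. The counts therefore give the level of RNA from the locus and do not measure how many alleles were deleted. As a description of sets in which 1 group has a single library, in the 3 libraries with the lower share of reads in no gene (controls 1 and 2 and Rnmt cKO 3) the log2 ratio of Rnmt was -1.04, and in the other 3 (control 3 and Rnmt cKO 1 and 2) it was -0.54.

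FAM103A1, also called RAM or RAMAC, is the small protein that binds RNMT and raises its activity. Fam103a1 (ENSMUSG00000038646, chromosome 7, 81762925 to 81769491) was at 30.6, 26.0 and 25.7 CPM in controls and at 29.5, 29.3 and 38.3 CPM in Rnmt cKO, from 260, 260 and 233 and from 279, 347 and 427 counts. Control 1 lay above Rnmt cKO 1 and 2, and Rnmt cKO 3 alone lay above all controls. The log2 fold change was 0.24 ± 0.15 (SE), with an unadjusted p of 0.0992 in the exact test, an adjusted p of 0.309 and an interval of -0.05 to 0.53. In percent this interval is -3.66% to 44.2%.

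The value for Fam103a1 rested largely on Rnmt cKO 3. Without that library the log2 fold change was 0.08, with an adjusted p of 0.719 in the exact test. Within the libraries with the lower share of reads in no gene the log2 ratio was 0.44, and within the others it was 0.19. Fam103a1 passed the threshold under 2 of 16 alternatives, with no scaling beyond library size at 0.36 (exact test, adjusted p of 0.0322) and with the share of reads in no gene as a covariate at 0.27 (quasi-likelihood test, adjusted p of 0.0335). These alternatives called 15.7% and 13.7% of all tested genes higher. With no scaling the median of all tested genes was also at 0.14, and Fam103a1 was 0.23 above it, as it was with TMM factors.

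The balance of the cofactor and the enzyme can be read as a ratio of levels per length. RPKM values here are TMM-scaled CPM per kb of annotated exon. The ratio of Fam103a1 to Rnmt RPKM was 1.94, 1.44 and 1.45 in controls and 2.29, 2.55 and 4.69 in Rnmt cKO. All Rnmt cKO ratios were above all control ratios, at 3.18 ± 1.32 against 1.61 ± 0.28 (SD, n = 3), a 1.97-fold difference in which the fall of Rnmt has a part by construction. The ratio of Rngtt to Rnmt RPKM, which has the same denominator, was 1.74 ± 0.08 and 2.94 ± 0.69. Both ratios had an exact two-sided permutation p of 0.1, the smallest that 3 libraries against 3 allow.

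CMTR1 and CMTR2 methylate the ribose of the first and of the next transcribed nucleotide. Cmtr1 (ENSMUSG00000024019, chromosome 17, 29660595 to 29705979) was at 11.8, 12.9 and 12.1 CPM in controls and at 14.6, 13.8 and 9.50 CPM in Rnmt cKO, from 100, 129 and 110 and from 138, 164 and 106 counts. Rnmt cKO 1 and 2 lay above the controls and Rnmt cKO 3 below them. The log2 fold change was 0.04 ± 0.20 (SE), the adjusted p was 0.952, and the interval of -0.39 to 0.40 was the widest among the 9 genes. The log2 ratio was -0.37 within the libraries with the lower share of reads in no gene and 0.22 within the others. Each set holds 1 library of a group, and the first holds Rnmt cKO 3, the lowest library for Cmtr1.

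Cmtr1 was also the cap gene with the largest overlap with other genes. In GENCODE vM21, a later release than the one used for counting, 55.3% of its 6380 exonic bases are shared with other genes on the same strand, which leaves 2855 bases. STAR leaves reads that fall on 2 genes unassigned, and how much of this overlap the counted release held is not known here. The gene that shares most, Gm28043, is annotated as protein coding and overlaps 3390 of its bases. Gm28043 held 40, 65 and 56 counts in controls and 82, 94 and 38 in Rnmt cKO, with a log2 fold change of 0.20 and an adjusted p of 0.795. Ccdc167, on the opposite strand, shares 1905 bases, and counts that ignore strand kept 39.2% of the sense counts of Cmtr1.

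Cmtr2 (ENSMUSG00000046441, chromosome 8, 110215665 to 110224486) was at 14.0, 15.5 and 13.9 CPM in controls and at 15.0, 15.9 and 17.2 CPM in Rnmt cKO. Rnmt cKO 2 and 3 were above all controls, and Rnmt cKO 1 was below control 2. The log2 fold change was 0.15 ± 0.08 (SE), with an adjusted p of 0.608 and an interval of -0.13 to 0.43. The ratio of Cmtr1 to Cmtr2 RPKM was 0.471 ± 0.012 in controls and 0.444 ± 0.122 in Rnmt cKO (SD, n = 3, exact permutation p of 0.9).

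PCIF1 binds RNA polymerase II and methylates the base of a first adenosine that already carries the ribose methyl group. Pcif1 (ENSMUSG00000039849, chromosome 2, 164879304 to 164894454) was at 134.5, 126.9 and 114.6 CPM in controls and at 123.0, 117.4 and 129.3 CPM in Rnmt cKO. The Rnmt cKO libraries lay within the range of the controls. It differed by -0.02 ± 0.08 (SE) on the log2 scale, with an adjusted p of 0.938 and an interval of -0.21 to 0.16, or -13.4% to 12.0%. Pcif1 shares 1107 exonic bases with Zfp335 on the opposite strand, and antisense reads over it came to 20.4% to 28.5% of the reads of both strands.

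TGS1 adds further methyl groups to the cap guanosine of small nuclear and small nucleolar RNAs. Tgs1 (ENSMUSG00000028233, chromosome 4, 3574875 to 3616619) was at 47.8, 44.6 and 51.6 CPM in controls and at 49.3, 49.9 and 48.5 CPM in Rnmt cKO. The Rnmt cKO libraries were closer to each other than the controls were and lay within their range. Its log2 fold change was 0.04 ± 0.06 (SE), with an adjusted p of 0.898 and an interval of -0.15 to 0.23.

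NCBP1 and NCBP2 form the nuclear cap-binding complex, in which NCBP2 holds the methylated cap and NCBP1 is the larger scaffold. Ncbp1 (ENSMUSG00000028330, chromosome 4, 46138613 to 46172403) was at 123.9, 125.6 and 132.2 CPM in controls and at 119.3, 123.3 and 135.2 CPM in Rnmt cKO. Its groups overlapped, with the lowest and the highest value both in Rnmt cKO. Its log2 fold change was -0.01 ± 0.06 (SE), the adjusted p was 0.969 and the interval was -0.19 to 0.16.

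Ncbp2 (ENSMUSG00000022774, chromosome 16, 31948513 to 31961781) was at 26.7, 21.8 and 25.3 CPM in controls and at 24.5, 23.4 and 25.6 CPM in Rnmt cKO. The means of the groups were 24.6 ± 2.54 and 24.5 ± 1.13 CPM (SD, n = 3), the interval of the log2 fold change was -0.25 to 0.26, and the adjusted p was 1. The balance of the subunit transcripts overlapped between the groups as well. The ratio of Ncbp1 to Ncbp2 RPKM was 3.40, 4.22 and 3.82 in controls and 3.56, 3.86 and 3.86 in Rnmt cKO, 3.81 ± 0.41 against 3.76 ± 0.17 (SD, n = 3, exact permutation p of 1).

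PHAX is the adaptor that joins the cap-binding complex to the export receptor for small nuclear RNA precursors. Phax (ENSMUSG00000008301, chromosome 18, 56562443 to 56587712) was at 39.6, 42.8 and 42.0 CPM in controls and at 39.5, 42.7 and 46.6 CPM in Rnmt cKO. Rnmt cKO 3 was the highest and Rnmt cKO 1 the lowest, so that the controls lay between them. The log2 fold change was 0.05 ± 0.08 (SE), with an adjusted p of 0.856 and an interval of -0.16 to 0.26.

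**Figure D2:**
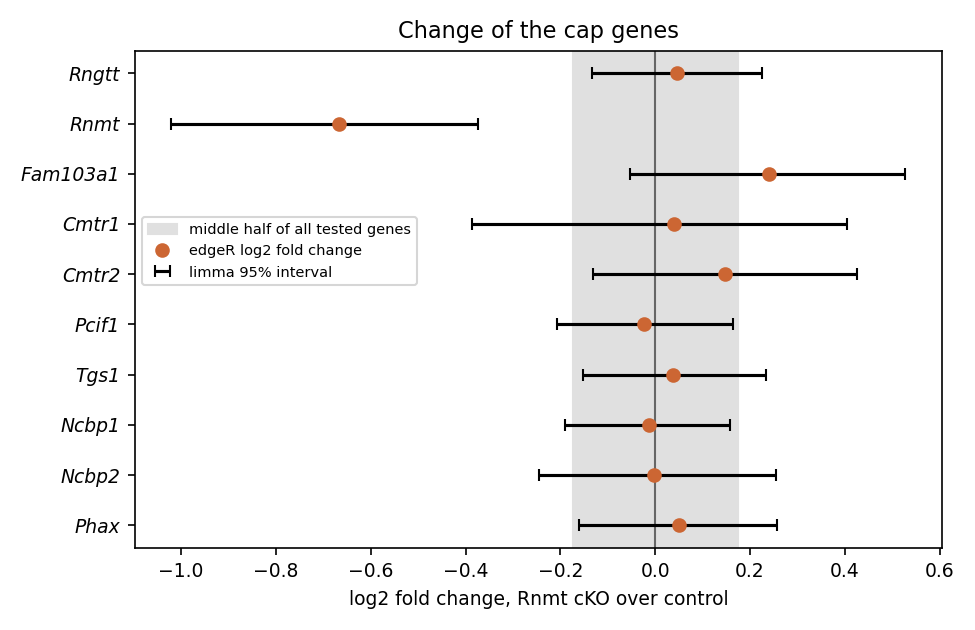
Log2 fold change of each cap gene in Rnmt cKO over control from edgeR (points) with the limma 95% interval (black bars). The grey band runs from the lower to the upper quartile of all tested genes, -0.17 to 0.17. The interval of Rnmt lies below 0 and those of the other 9 genes include 0, with Fam103a1 and Cmtr1 among the widest.

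Seen together, the log2 fold changes of the 9 genes other than Rnmt ran from -0.02 to 0.24, with 6 above 0 and 3 below. Of the 9, 8 lay between the quartiles of all tested genes, and Fam103a1 lay above the upper one. The median size of change was 0.04 for the 9 genes and 0.17 for all tested genes. None of the 9 had groups that did not overlap, which 31.4% of all tested genes had. In the exact test 0 of the 9 had an unadjusted p under 0.05. DESeq2 called 0 of the 9, beside 10.9% of all tested genes in either direction. These counts do not show that the genes did not change. The limma intervals of the 9 reached from -23.5%, for Cmtr1, to 44.2%, for Fam103a1.

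The summed level of the 9 genes also overlapped between the groups. It was 149.4, 145.8 and 149.4 RPKM in controls and 146.6, 149.3 and 162.1 RPKM in Rnmt cKO. Rnmt cKO 3 was above the controls, while the other 2 Rnmt cKO libraries were within their range. The means were 148.2 ± 2.09 and 152.7 ± 8.25 RPKM (SD, n = 3). With Rnmt added, the sums were 159.4 ± 1.74 and 159.7 ± 6.69 RPKM.

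The order of the cap genes by level per length was led by the larger subunit of the cap-binding complex. In controls Ncbp1 was at 42.3 ± 1.46 RPKM (SD, n = 3), above every library of the next gene. Pcif1 (21.7 ± 1.73 RPKM), Rngtt (19.4 ± 1.24), Phax (18.7 ± 0.75) and Fam103a1 (17.9 ± 1.78) followed, each overlapping the next. Rnmt (11.2 ± 0.79), Ncbp2 (11.2 ± 1.15) and Tgs1 (11.1 ± 0.81) formed a tier below all libraries of Fam103a1, and their order could not be told apart. Cmtr2 (4.08 ± 0.25 RPKM) and Cmtr1 (1.92 ± 0.09 RPKM) were the lowest, without overlap. If only the 2855 bases that no other vM21 gene of its strand shares are taken as its length, Cmtr1 was at 4.29 ± 0.20 RPKM and overlapped Cmtr2.

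In Rnmt cKO Rnmt stood apart from the genes it overlapped in controls. Rnmt was at 8.38, 7.48 and 5.32 RPKM in Rnmt cKO 1, 2 and 3, below every library of Ncbp2 (11.1 ± 0.51 RPKM) and Tgs1 (11.4 ± 0.16) and above every library of Cmtr2 (4.52 ± 0.31). In controls its libraries overlapped those of both genes. Fam103a1, at 21.1 ± 3.35 RPKM, overlapped Pcif1 (21.3 ± 1.03) and Rngtt (20.1 ± 0.75) in this group.

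**Figure D3:**
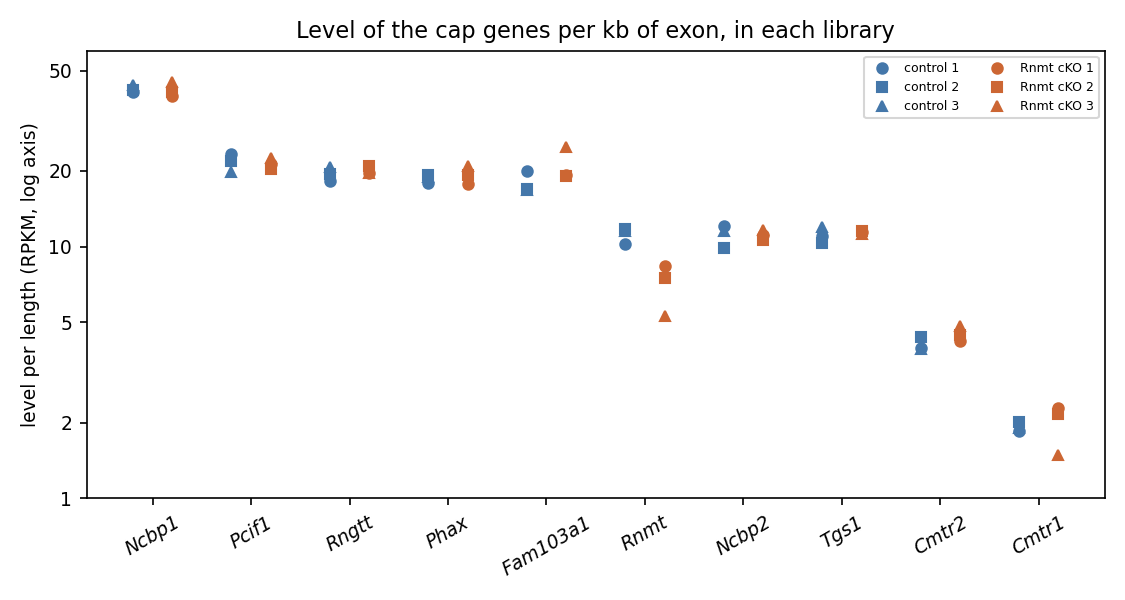
Level of the cap genes in each library in RPKM (TMM-scaled CPM per kb of annotated exon, log axis), ordered by the control mean. Blue points are controls and orange points Rnmt cKO. Rnmt lies beside Ncbp2 and Tgs1 in controls and below both in Rnmt cKO.

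The Rnmt result and the absence of calls among the other genes were followed through 16 alternatives of scaling, filter, test, strand and library. Rnmt was lower and past the threshold in 16 of 16, at log2 fold changes between -0.81, without Rnmt cKO 1, and -0.52, without Rnmt cKO 3. Its adjusted p ran from 1.48e-05 to 0.0416. The other 9 genes gave 144 combinations of gene and alternative, of which 142 stayed on their side of the threshold. The remaining 2 were the Fam103a1 values given above. The sign of the log2 fold change differed in 21 of the 144, so no direction can be given for the genes near 0.

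**Figure D4:**
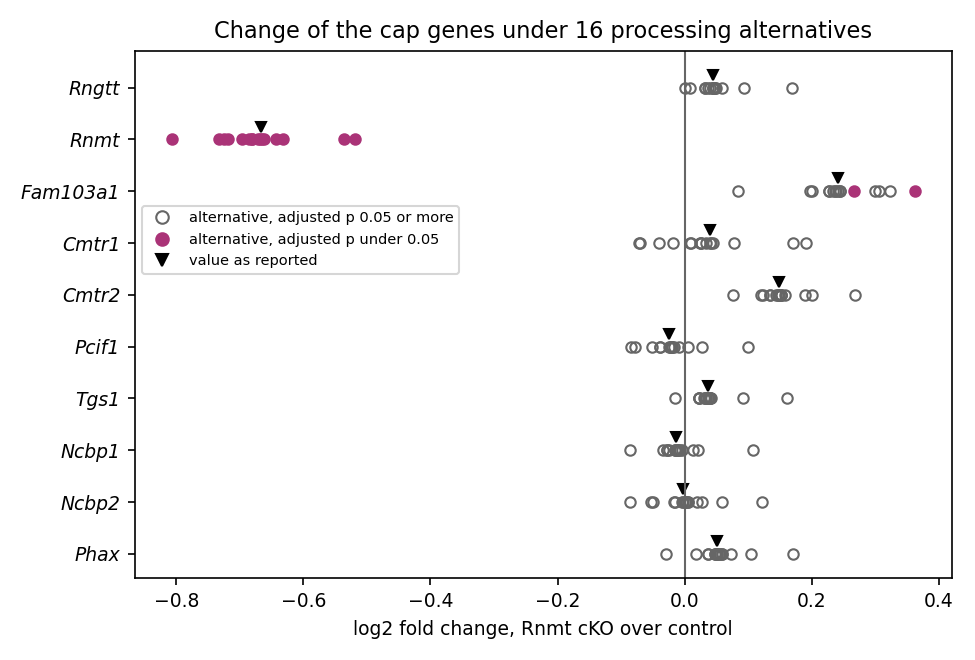
Log2 fold change of each cap gene, Rnmt cKO over control, as reported (triangles) and under 16 processing alternatives (circles). Filled circles have an adjusted p under 0.05. All 16 circles of Rnmt are filled and below 0, 2 of those of Fam103a1 are filled and above 0, and none of the other 8 genes has a filled circle.

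The pattern of Rnmt over the libraries was compared with that of all tested genes. Over the 6 libraries the log2 CPM of Vps8, Hpgds, Slc19a1, Dlgap4 and Tmtc4 ran closest to that of Rnmt, with Pearson's r between 0.996 and 0.998. These values are a description, since the libraries fall into 2 groups for Rnmt and such genes differ between the groups in the same order. Hpgds and Tmtc4 were past the threshold, at log2 fold changes of -1.08 and -0.80, and Vps8 (-0.18), Slc19a1 (-0.37) and Dlgap4 (-0.23) were not. Among the other cap genes r with Rnmt ran from -0.903, for Fam103a1, to 0.458, for Cmtr1, also as a description only.

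Related genes were taken as 7 lists, of which 6 concern the cap, RNA polymerase II or RNA methylation. Of the 56 tested genes of these 6 lists, 1 was lower and 4 were higher, 8.93% in all, beside 14.8% of all tested genes. Their median log2 fold change was 0.06. The lists are described by their counts and medians alone.

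The nuclear partners of the cap-binding complex, which take part in RNA export, decay and import of its carriers, had 0 of 12 genes past the threshold and a median of 0.12. Kpnb1, the import receptor with the highest CPM of this list, was at 0.07 with an adjusted p of 0.765. Of the 12, 2 had an unadjusted p under 0.05 in the exact test, and DESeq2 called 0, beside 10.9% of all tested genes. The number called higher was 2 of 12 without Rnmt cKO 3, with no scaling and with the covariate. Among all tested genes, 1221 of 12181, 1938 of 12336 and 1696 of 12336 were called higher in these fits.

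Among 14 cytoplasmic cap-binding proteins and their regulators 2 rose, with a median of 0.09. Parn, a cap-binding deadenylase, was at 47.3, 53.1 and 46.1 CPM in controls and at 60.8, 62.7 and 65.2 CPM in Rnmt cKO, without overlap. Its log2 fold change was 0.36 ± 0.07 (SE), with an adjusted p of 0.00485, and it passed under 13 of 16 alternatives, the exceptions being the fits without control 1, without control 3 and with the replicate block. Larp1, which binds the cap and the first bases of mRNAs for ribosomal proteins, was at 202.0, 213.0 and 226.6 CPM and at 269.8, 262.1 and 262.9 CPM, with a log2 fold change of 0.31 ± 0.05 (SE) and an adjusted p of 0.00933. It passed under 11 of 16 alternatives and not without control 1 or 2, without Rnmt cKO 1 or 2 or with the replicate block, where the adjusted p was highest at 0.119 (quasi-likelihood test). Without Rnmt cKO 3, 1 gene of this list was called lower, as were 10.5% of all tested genes. Eif4e, the cap-binding initiation factor, was at 0.06 with an adjusted p of 0.783, and Cyfip2, the list's gene with the highest CPM, at -0.09.

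Among 11 cap removal enzymes 9 were tested and 1 rose, with a median of 0.06. Nudt16, a decapping enzyme, was at 32.6 ± 3.89 against 41.7 ± 3.61 CPM (SD, n = 3), with a log2 fold change of 0.35 and an adjusted p of 0.043. It passed under 5 of 16 alternatives. Calls were lost without control 2 or 3 and without Rnmt cKO 1 or 3. The call was also lost on all libraries with DESeq2 size factors, the DESeq2 Wald test and limma. The same held for no filter, counts that ignore strand and the quasi-likelihood fits without the covariate. Dcp2, the catalytic decapping subunit, was at 0.07. The other N7-guanosine methyltransferases, which act on tRNA and rRNA, and their subunits had 0 of 4 genes past the threshold and a median of 0.03. Wbscr22, the rRNA enzyme, was at 0.16 with an adjusted p of 0.387, and Trmt112, its partner, at 0.28 with an adjusted p of 0.363. The tRNA enzyme pair Mettl1 and Wdr4 was at -0.21 and -0.11. Of these 4 genes 0 had an unadjusted p under 0.05 in the exact test, and DESeq2 called 0, beside 10.9% of all tested genes. With the share of reads in no gene as a covariate, 1 of the 4 was called higher, as were 13.7% of all tested genes.

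Among 9 genes of RNA polymerase II and of factors that act with it, 1 rose, with a median of 0.06. Cdk9, the elongation kinase, was at 36.8, 41.5 and 45.9 CPM in controls and at 53.4, 51.0 and 54.4 CPM in Rnmt cKO, with a log2 fold change of 0.35 ± 0.10 (SE) and an adjusted p of 0.0163. It passed under 10 of 16 alternatives. The exceptions were the DESeq2 Wald test, the replicate block, and the fits without control 1 or 2 or without Rnmt cKO 1 or 2. Without Rnmt cKO 3, 2 genes of this list were called lower, as were 10.5% of all tested genes. Supt5, an elongation factor that contacts RNGTT, was at 0.26 with an adjusted p of 0.0792. Among 8 other RNA adenosine methylation genes Mettl14, a subunit of the mRNA adenosine methyltransferase, fell, at 37.6 ± 3.17 against 28.9 ± 4.32 CPM (SD, n = 3), with a log2 fold change of -0.38 and an adjusted p of 0.0411. It passed under 5 of 16 alternatives and, of the fits without 1 library, only without Rnmt cKO 2. The call was also lost with no scaling, no filter, the DESeq2 Wald test, limma and the quasi-likelihood fits without the covariate. Its partner Wtap was at 0.01, and the median of the list was -0.11.

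The seventh list holds interferon-stimulated genes, to which Cmtr1, also known as ISG95, is counted in other work. Of 22 such genes 18 rose and 0 fell, beside 8.00% of all tested genes called higher and 6.84% lower. Their median was 0.80. The higher genes numbered 8 without Rnmt cKO 1 and 10 without control 3, where 5.52% and 5.47% of all tested genes were called higher. Isg15, a ubiquitin-like modifier, was at 7.41, 6.19 and 5.30 CPM in controls and at 22.3, 11.0 and 20.1 CPM in Rnmt cKO, a log2 fold change of 1.49 with an adjusted p of 1.8e-06. Mx1, Xaf1 and Zbp1 were at 1.21, 0.79 and 0.60. Cmtr1, at 0.04, lay above 2 of the 22 genes. Whether Cmtr1 differed from these genes was not tested.

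**Figure D5:**
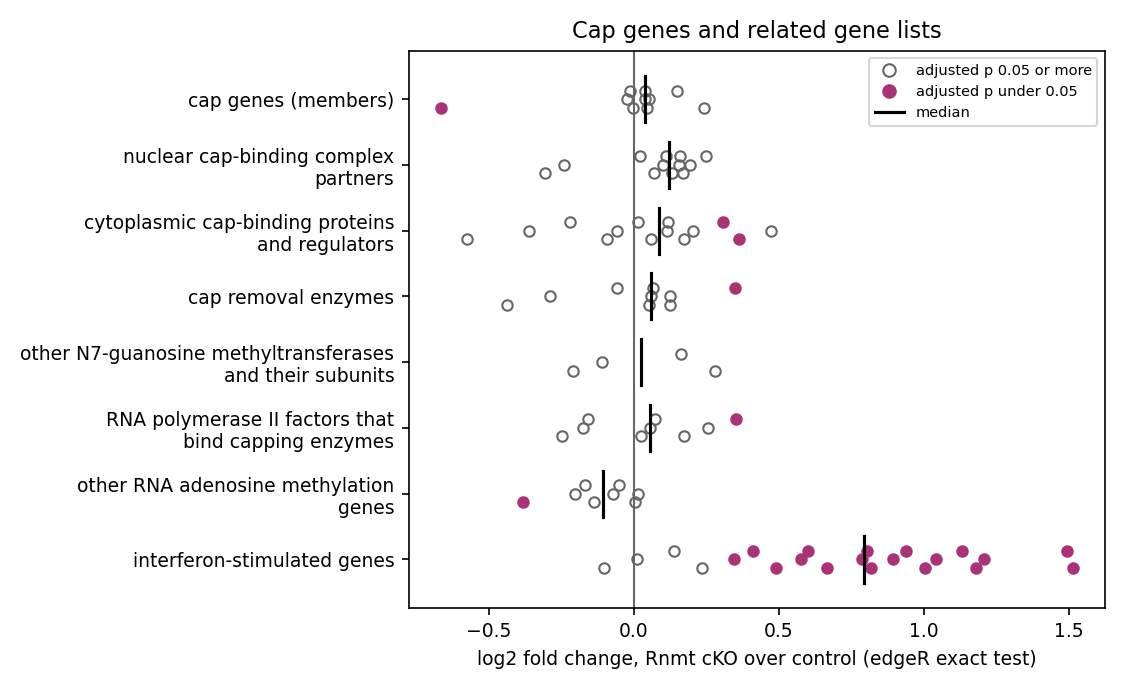
Log2 fold change in Rnmt cKO over control of the 10 cap genes and of the tested genes of the 7 lists, each point a gene. Filled points have an adjusted p under 0.05 and black lines mark the median of each row. The cap gene row has 1 filled point, Rnmt, and the interferon-stimulated row has 18, all above 0.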

How the data were processed

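Members and lists were chosen with earlier results of these data known. The authors aligned paired-end reads of rRNA-depleted RNA to mm10 (GRCm38) with STAR 2.5.2b and GENCODE vM12 (basic), and deposited unnormalised counts of uniquely mapped fragments per gene. Lines for reads in no gene or in several genes entered neither library sizes nor tests. The sense column was used, since dividing it by 1 constant per library gave the scaled signal columns in the authors' deposited edgeR table for 100% of 11221 genes (relative tolerance of 0.001). The fold changes and p-values of that table were not used.

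Genes above 1 CPM in 3 or more samples were tested with edgeR 4.0.16 (R 4.3.3) by the exact test on tagwise dispersions with TMM factors, at an adjusted p of 0.05. SE values come from log2 CPM with a prior count of 2. Intervals came from voom in limma 3.58.1. Alternatives used DESeq2 1.42.0 size factors and Wald test, no scaling, quasi-likelihood fits, other filters, counts of either strand, and each library left out. Ratios were tested in scipy 1.17.1. No libraries appeared to be duplicates, with a chi-square between libraries of a group of 3.64 to 22.9 per degree of freedom, which does not show that they are independent animals. Code was tested on simulated data. Symbols came from the deposited table, and lengths, overlaps and coordinates from GENCODE vM21 on the same build. The sets of libraries by share of reads in no gene and the length of Cmtr1 outside other genes were added after seeing the data. Besides all members, the genes named are those of each list past the threshold (up to 4 by smallest p), its gene with the highest CPM and the 5 genes nearest to Rnmt. Of the genes under this rule, 1 is not reported here. Others, such as Eif4e, Trmt112, Mettl1, Wdr4 and the overlapping genes, were chosen after their values were seen.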

Additional observations from a re-analysis of the deposited data

How the results depend on the processing

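No result changed direction with its call under any of the 16 alternatives, and Rnmt kept its call in all of them. The number of cap genes called higher was 0 as reported and 1, Fam103a1, with no scaling and with the share of reads in no gene as a covariate. With no scaling the median of the 9 other cap genes was 0.17, where that of all tested genes was 0.14, so that the difference between them was 0.03 under both scalings. Of all tested genes, 535 were lower and 1938 higher with no scaling (78.4% of calls higher, against 53.9% with TMM factors), and 1466 and 1696 with the covariate. Leaving out 1 library gave 547 (without Rnmt cKO 2) to 1285 (without Rnmt cKO 3) lower genes and 643 to 1221 higher genes for the same 2 libraries, and fewer libraries were then fitted. The numbers of lower genes without control 1 and 2 were 559 and 560, and that of higher genes without control 2 was 656.

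The libraries of both groups are numbered 1 to 3, and the labels do not say what the numbers mark. Same-numbered libraries had correlations of their deviations between -0.35 and -0.02, and 0 of 6 libraries correlated best with its own number. So few libraries cannot show whether the numbers pair them. A quasi-likelihood fit with the replicate number as a block called 276 lower and 431 higher genes (636 and 793 without the block). Rnmt was at -0.69 with an adjusted p of 0.0416 in the blocked fit, and 0 of the other cap genes passed. With 3 libraries a group and 100 to 164 counts per library, Cmtr1 had the widest interval of the 9 other genes.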
